A study of Drosophila melanogaster with 8 samples.

Results

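Poly(A)+ RNA of Drosophila melanogaster ovaries was sequenced to ask which transcripts change when the heterochromatin protein HP1a is targeted by RNA interference in the somatic cells of the ovary. The control group was the progeny of tj-Gal4 and the VDRC line #60000, and in the knockdown group tj-Gal4 was crossed to an HP1a RNAi line instead, with 2 libraries each, from females aged 0 to 4 days and about 100 ovaries per library. All 4 libraries therefore carried tj-Gal4, and the groups differed in the line crossed to it. Within this experiment, 11 genes were described here out of the 13776 genes in the tables: those that still carry only a computed-gene (CG) number as their symbol and whose transcript was largely lost in the knockdown libraries. They had at least 5 TPM (transcripts per 1000000 transcripts, a level corrected for length) in both controls, and the lower control value was at least 4 times the higher knockdown value. These values chose the genes, so the fall itself is a description below, and no call or interval on a member's fall is evidence for it.

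HP1a binds histone H3 methylated at lysine 9 and is best known for packing pericentric heterochromatin and silencing transposons. The ovary is built of germline cysts wrapped in somatic cells: escort cells in the germarium, then the follicle cells that form an epithelium around each egg chamber and later secrete the eggshell. The driver tj-Gal4 follows the traffic jam gene, a large Maf factor of these somatic cells. A CG number marks a gene model for which no name has been adopted, so that for most of the 11 genes no role can be stated.

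Of 5922 genes with a CG symbol, 1916 reached 5 TPM in both controls, and the 11 members were 0.574% of these. Genes with any other symbol met the same TPM thresholds at nearly the same share, 26 of 4508 (0.577%). By mean control level, the highest of those 26 were, in order, Col4a1 and vkg (the collagen IV genes), w (described below), Oat, Six4, tj, sosie, Iris, RpS10a and eya. A further 1 identifier met the thresholds but had no symbol. The number of CG genes that met the thresholds was 41 without control 2 and 24 without knockdown 2, and 15 without control 1 or without knockdown 1. The rule is looser with a library left out, so all 11 members had to be among the genes found each time.

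**Figure D1:**
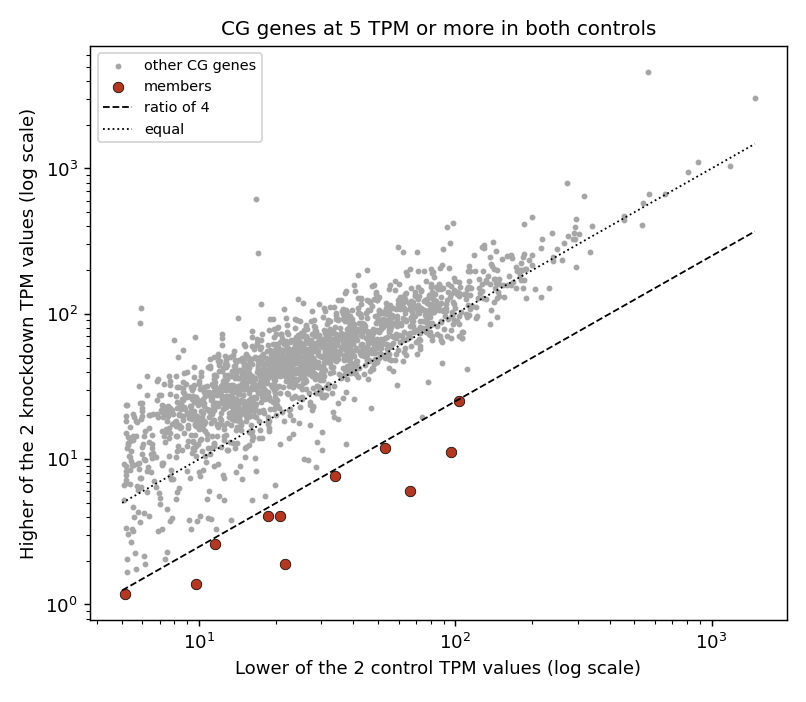
Each point is a CG gene with at least 5 TPM in both controls (1916 genes). The x axis gives the lower control TPM and the y axis the higher knockdown TPM, both on log scales. The 11 members lie on or below the dashed line (a ratio of 4), and most other CG genes lie near or above the dotted line of equal values.

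The libraries held 18671653 to 38330979 estimated reads. The members took 0.0484% and 0.0309% of the reads in the controls (library 1 first, here and below), and 0.00268% and 0.0047% in the knockdown libraries. Their summed level was 828 and 448 TPM in the controls and 53.0 and 73.3 TPM in the knockdown libraries. The transcript of HP1a itself stood at 253 and 229 CPM (counts per 1000000 reads, with library sizes scaled by TMM) in the controls and at 224 and 236 CPM in the knockdown libraries, a log2 fold change of -0.06 (SE 0.11, adjusted p = 0.677 with edgeR), whose sign turned with library size alone (0.17, median of all genes 0.25) and on TPM (0.46, median of all genes 0.50 or 0.56). A fall of the targeted transcript was thus not detectable in RNA of the whole ovary. In whole-ovary libraries fewer cells of a type and less RNA per cell cannot be told apart. The gene w, an eye pigment transporter gene used as a visible marker on many transgenes, was at 271 and 175 TPM in the controls and 18.8 and 41.8 TPM in the knockdown libraries. It met the same TPM thresholds as the members. Whether a value follows the RNAi or the background of the crossed line cannot be told apart.

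All 11 members passed the filter on low counts, and all 11 were called lower (adjusted p under 0.05, edgeR quasi-likelihood test), against 16.1% of all 8798 genes tested and 14.6% of the 2972 CG genes tested. Because the members were picked by this contrast, nothing is read from that count. Their median log2 fold change was -3.63, where the median of all genes tested was 0.02. Unless stated, fold changes here and below are from scaled counts, while most levels are in TPM. On TPM the median log2 fold change of all genes was 0.50 (limma-trend with pseudocount 1). Falls therefore look smaller, and rises larger, in the TPM values than in the fold changes beside them. The background itself rested on the number of libraries: 1415 genes were called lower with all 4, 191 without knockdown 1 and 245 without knockdown 2. In these fits 1 group has a single library, which is assumed to vary like the other group.

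The members ranged over more than an order of magnitude in level. CG4250 was the highest by TPM, at rank 70 of the 1916 CG genes, and CG15725 the lowest, at rank 1847. They were spread over the genome, with 2 members on the X chromosome, 2 on 2L, 3 on 2R, 2 on 3L and 2 on 3R. Chromosome 4, which is small and rich in HP1a, held 0 members, but only 4 of the 1916 CG genes lie there.

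**Figure D2:**
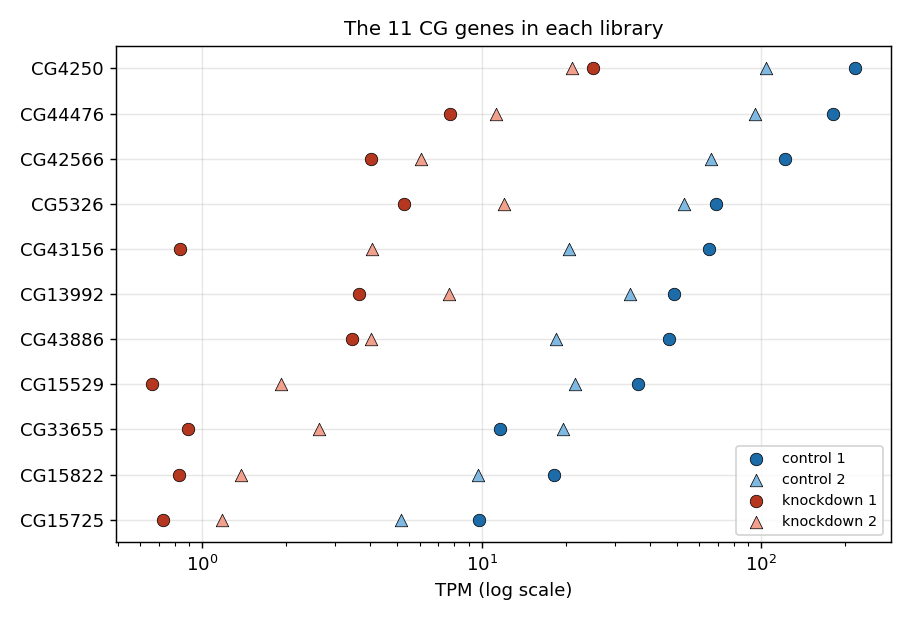
TPM of the 11 members (rows, ordered by mean control level) in control 1 and control 2 (blue) and knockdown 1 and knockdown 2 (red), on a log scale. Both control values lie to the right of both knockdown values in every row, as the choice of members requires; control 1 exceeds control 2 in 10 rows and knockdown 2 exceeds knockdown 1 in 10 rows.

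The pair CG42566 and CG4250 stood out by position, since they are next to each other on 2R in the gene order of Release 6. CG4250 was at 218 and 104 TPM in the controls and at 25 and 21.1 TPM in the knockdown libraries (log2 fold change -3.35, SE 0.41). It was the only member with the higher knockdown value in knockdown 1, and it lay closest to the threshold, with a ratio of 4.15 between the lower control and the higher knockdown value. CG42566 was at 122 and 66.3 TPM in the controls and at 4.03 and 6.07 TPM in the knockdown libraries, one of the deepest falls (log2 fold change -4.65, SE 0.44). In both genes control 1 stood well above control 2, by 2.11 times for CG4250 and 1.84 times for CG42566. The knockdown values of CG4250 were close to each other, and CG42566 was 1.5 times as high in knockdown 2 as in knockdown 1.

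Their neighbours, which the rule did not use, did not all follow them. CG42565, on the other side of CG42566, fell by a smaller amount (log2 fold change -1.31, SE 0.20, adjusted p = 0.0233), from 128 and 96.1 TPM to 62.2 and 68.2 TPM. CG13510, listed at the same place as CG42565, rose (log2 fold change 1.64, SE 0.41, adjusted p = 0.0434), from 16.4 and 14.2 TPM to 94.0 and 42.4 TPM. CG42565, CG13511 and CG13510 have the same start and end in the RefSeq table. Their order is therefore only by symbol, and reads of this locus may be divided between them with uncertainty. The rise of CG13510 was not called without control 1 (adjusted p = 0.0699), control 2 (0.0758) or knockdown 1 (0.239). The call for CG42565 was lost without knockdown 1 (adjusted p = 0.0812) or knockdown 2 (0.0607). On the far side of CG4250, CG30269 (log2 fold change -1.59, adjusted p = 0.0504) and CG30273 (-1.44, adjusted p = 0.0836) did not pass. With all libraries, changes of both signs were thus called at the locus shared by CG42565 and CG13510, where the division of reads is uncertain.

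**Figure D3:**
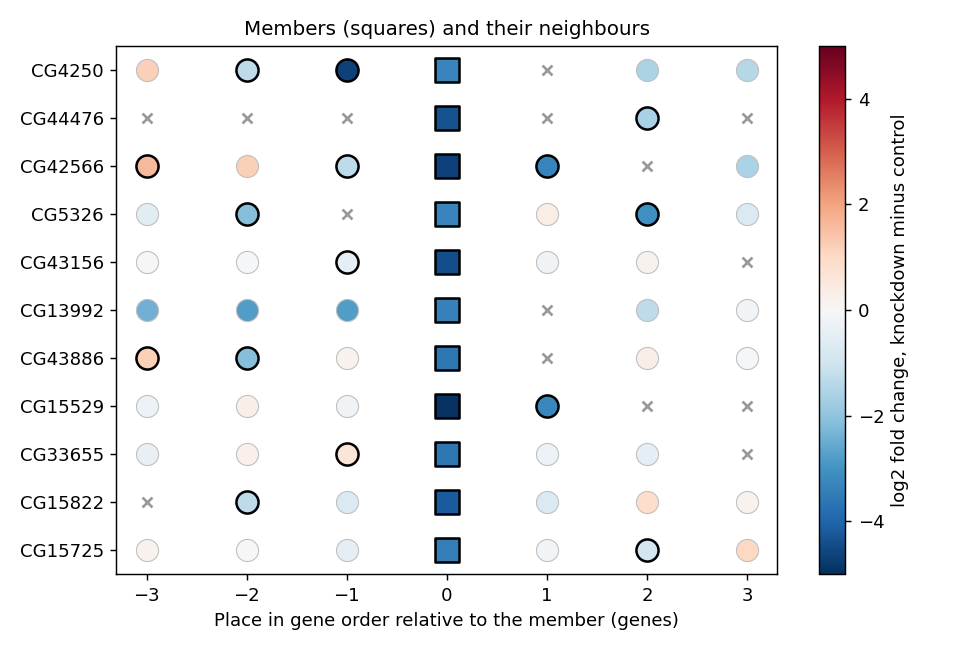
Each row is a member (square at 0) with the 3 measured genes on either side in the gene order of Release 6, coloured by log2 fold change, knockdown minus control. Black rims mark genes called at an adjusted p of 0.05, pale rims genes tested and not called, and crosses genes with too few counts to be tested. Of the neighbours called lower, other than members, bond near CG5326 (-3.08) and CG11498 (-3.28) fell most. CG11498 overlaps CG15529, so its reads may not be separable from that member. Falls beside CG13992 (psd, -2.79, and Vm26Aa, -2.80) were not called. Genes with the same start and end are ordered by symbol.

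Over all members, the measured genes within 3 places on either side, other than members, numbered 60, of which 46 were tested. Of these, 9 were called lower and 3 higher, against 16.1% and 11.8% of all genes. Their median log2 fold change was -0.29, where that of all genes tested was 0.02. Among the nearest genes on each side, 14 were tested, with 3 lower and 1 higher (median -0.38). Both counts include 3 genes that overlap a member, whose reads may not be separable from it: CG11498 (called lower), CG9485 (called higher) and Smr (not called). Within 3 places, the share of neighbours called lower was therefore near the background, and the share called higher was below it. Both medians lay below that of all genes. A few loci made up the larger falls.

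The clearest of these lay on 3R. CG5326, a predicted fatty acid elongase, was at 69.3 and 53.3 TPM in the controls and at 5.27 and 12.0 TPM in the knockdown libraries (log2 fold change -3.33, SE 0.44). The gene bond, which encodes an elongase of very long-chain fatty acids known from cell division in the male germline, lies 2 measured genes away and fell as well. It stood at 52.9 and 37.8 TPM in the controls and at 4.72 and 10.3 TPM in the knockdown libraries (log2 fold change -3.08, SE 0.44, adjusted p = 0.022), with no overlap between groups. In all 4 libraries the order of bond was that of CG5326, with control 1 highest and knockdown 1 lowest. The gene CG33099, on the other side of CG5326, fell too (log2 fold change -2.14, SE 0.37, adjusted p = 0.0249), from 9.08 and 9.93 TPM to 2.36 and 3.79 TPM. Its call was lost without knockdown 1 (adjusted p = 0.113) or knockdown 2 (0.0635), whereas bond passed without each library. AdipoR, an adiponectin receptor gene between CG5326 and bond, did not share the fall (log2 fold change 0.38, SE 0.11, adjusted p = 0.0526). Beyond bond, a further elongase gene, sit, was at 0.137 to 0.745 TPM and did not pass (-0.72, SE 0.94, adjusted p = 0.578). With so few reads and so large an SE, a fall of sit could not be judged. CG5346, beyond CG33099, did not pass either (-0.56, SE 0.30, adjusted p = 0.19).

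CG13992, on 2L, lies next to a group of eggshell genes. It was at 48.7 and 34 TPM in the controls and at 3.64 and 7.64 TPM in the knockdown libraries (log2 fold change -3.38, SE 0.43). The next 3 genes on one side are psd, Vm26Aa and Vm26Ac, which encode proteins of the vitelline membrane, the inner eggshell layer secreted by follicle cells. Vm26Aa had far higher levels, at 7922 and 18751 TPM in the controls and at 860 and 4557 TPM in the knockdown libraries. The gene psd was at 231 and 516 TPM in the controls and at 24.8 and 128 TPM in the knockdown libraries. None of the 3 passed, with log2 fold changes of -2.79 (psd, SE 0.84, adjusted p = 0.0599), -2.80 (Vm26Aa, SE 0.88, adjusted p = 0.0651) and -2.41 (Vm26Ac, SE 1.07, adjusted p = 0.135). Without knockdown 2, psd (adjusted p = 0.00449) and Vm26Aa (0.00854) passed, as they did with DESeq2 (0.0367 and 0.041) and with the replicate number as a block (0.00146 and 0.0019). Vm26Ab, the gene after these, was called lower with all libraries (log2 fold change -3.51, SE 0.89, adjusted p = 0.0441), but not without control 2 (0.0651). The controls ran in opposite order at this locus: control 2 was the higher for all 3 eggshell genes, and control 1 for CG13992. On the other side, Ucp4B (adjusted p = 0.13) and the profilin gene chic (log2 fold change -0.16, adjusted p = 0.357) did not pass.

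CG15529, on 3R, showed the deepest fall of the members by the fit (log2 fold change -4.94, SE 0.58). It was at 36.4 and 21.7 TPM in the controls and at 0.659 and 1.91 TPM in the knockdown libraries, which rested on 7 and 41 reads. CG11498, which overlaps it in the RefSeq table, was lower as well (log2 fold change -3.28, SE 0.55, adjusted p = 0.0243), from 5.18 and 2.67 TPM to 0.388 and 0.68 TPM. This call was lost without knockdown 1 (adjusted p = 0.0768). Whether the library preparation kept the strand is not stated, so reads of the overlapping genes may not be separable. The nearest genes outside the overlap, AdoR (adjusted p = 0.701) and Tpi (adjusted p = 0.156), did not pass.

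CG33655, on 2R, was the only member that was lower in control 1 than in control 2, at 11.6 and 19.6 TPM. It was at 0.887 and 2.62 TPM in the knockdown libraries (log2 fold change -3.61, SE 0.58). Both controls lay above both knockdown libraries, as the rule requires. It overlaps CG9485, which went the other way, from 18.6 and 22.2 TPM to 43.8 and 46.6 TPM (log2 fold change 0.63, SE 0.13, adjusted p = 0.0315). The rise of CG9485 was not called without knockdown 1 (adjusted p = 0.131) or knockdown 2 (0.192). On the other side CG30394 (adjusted p = 0.181) did not pass, nor did dom (adjusted p = 0.0744), which encodes a chromatin remodelling ATPase.

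CG15725, on the X chromosome, overlaps Smr in the RefSeq table, a gene for a nuclear receptor corepressor. It was at 9.76 and 5.13 TPM in the controls and at 0.725 and 1.18 TPM in the knockdown libraries (log2 fold change -3.47, SE 0.47), and control 2 was just above the limit of 5 TPM. Smr was at 96.1 and 119 TPM in the controls and at 109 and 117 TPM in the knockdown libraries, and did not pass (log2 fold change -0.48, SE 0.16, adjusted p = 0.074). With limma-trend on TPM its log2 fold change was 0.08 (adjusted p = 0.636), where the median of all genes was 0.50, so that relative to other genes its direction was the same. It was called lower without control 1 (-0.59, adjusted p = 0.0253). In TPM the groups overlapped for Smr. Beyond CG4004 (adjusted p = 0.465) lies Paics, a gene of purine synthesis, which was lower (log2 fold change -0.90, SE 0.24, adjusted p = 0.0464) but not without knockdown 1 (0.134) or knockdown 2 (0.158).

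CG15822, on 3L, was at 18.2 and 9.74 TPM in the controls and at 0.829 and 1.38 TPM in the knockdown libraries (log2 fold change -4.21, SE 0.46). RefSeq lists 4 transcripts for it, more than for any other member. Its deposited length, a mean over transcripts weighted by their abundance, was 2713 and 2263 nt in the controls and 1460 and 2143 nt in the knockdown libraries. The groups did not overlap, but the gap between control 2 and knockdown 2 was small, and the knockdown lengths rested on 47 and 173 reads. Its neighbour sls, a titin-like gene of muscle, was lower (log2 fold change -1.30, SE 0.26, adjusted p = 0.0295), but not without knockdown 1 (adjusted p = 0.0992) or knockdown 2 (0.0763), while zormin, another muscle gene between them, did not pass (-0.78, adjusted p = 0.183).

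The last 3 members, CG44476, CG43156 and CG43886, have much in common. Each has a single RefSeq transcript, and each carries a synonym that names it as a long intergenic noncoding RNA (lincRNA), although RefSeq now lists it as protein-coding. Among the 1916 CG genes at 5 TPM, 9 (0.47%) carried such a synonym, and these 3 were among them. They are also the shortest in effective length, the number of positions at which a sequenced fragment can start: 44 nt for CG44476, 81 nt for CG43156 and 98 nt for CG43886, for nominal lengths of 290, 330 and 347 nt. An effective length under 100 nt was found for 26 of the 1916 CG genes (1.36%).

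TPM divides by effective length, so these genes reached high TPM with few reads. CG44476 was at 181 and 95.7 TPM in the controls from 162 and 88 reads, and at 7.68 and 11.3 TPM in the knockdown libraries from 5 and 15 reads. CG43156 was at 65.4 and 20.6 TPM in the controls (108 and 35 reads) and at 0.831 and 4.06 TPM in the knockdown libraries (1 and 10 reads). CG43886 was at 47.1 and 18.5 TPM in the controls (94 and 38 reads) and at 3.44 and 4.03 TPM in the knockdown libraries (5 and 12 reads). To show how few reads limit the size of the fall, which the choice of members fixes to be large, the ratio of control to knockdown rates over pooled reads was 19.6 (95% exact counting interval 12.4 to 32.6) for CG44476, 20.4 (11.1 to 41.8) for CG43156 and 12.2 (7.32 to 21.5) for CG43886. These intervals cover counting error only. The fitted log2 fold change was -4.34 (SE 0.56) for CG44476, -4.45 (SE 0.94) for CG43156 and -3.63 (SE 0.67) for CG43886, and the last 2 had the largest SE among the 11 members.

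Neighbours of the 3 short genes were mixed. CG5758, 2 places from CG44476, was lower (log2 fold change -1.64, SE 0.34, adjusted p = 0.0317). The other 5 genes around CG44476 had too few reads to be tested. Next to CG43156, Upf1, a helicase gene of nonsense-mediated mRNA decay, was called lower by a small amount (log2 fold change -0.47, SE 0.11, adjusted p = 0.0379). With limma-trend on TPM it was at 0.07, where the median of all genes was 0.50, so that it lay below that median, and its level was 39.4 and 39.3 TPM in the controls, against 40.1 and 42.8 TPM under knockdown. Near CG43886, CG13676 was lower (log2 fold change -2.14, SE 0.35, adjusted p = 0.0239) and mus301, a DNA helicase gene of repair, was higher (1.18, SE 0.31, adjusted p = 0.0459). Without knockdown 1 or knockdown 2, none of these 4 neighbours was called, with adjusted p of 0.065 to 0.363.

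Their rank among CG genes depended on the treatment of length. By TPM, CG44476 ranked 93 of 1916, CG43156 617 and CG43886 836. By reads per kilobase of nominal length per 1000000 reads, they ranked 1281, 1694 and 1757. CG4250 moved little, from rank 70 to rank 101. Its nominal length in the controls, 311 nt, was within the range of these 3 genes, but its effective length was 185 nt. With that scale in the place of TPM, an alternative chosen after seeing the data, the same thresholds chose 14 CG genes, 9 of them members. CG43156 and CG15725 were the members left out.

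**Figure D4:**
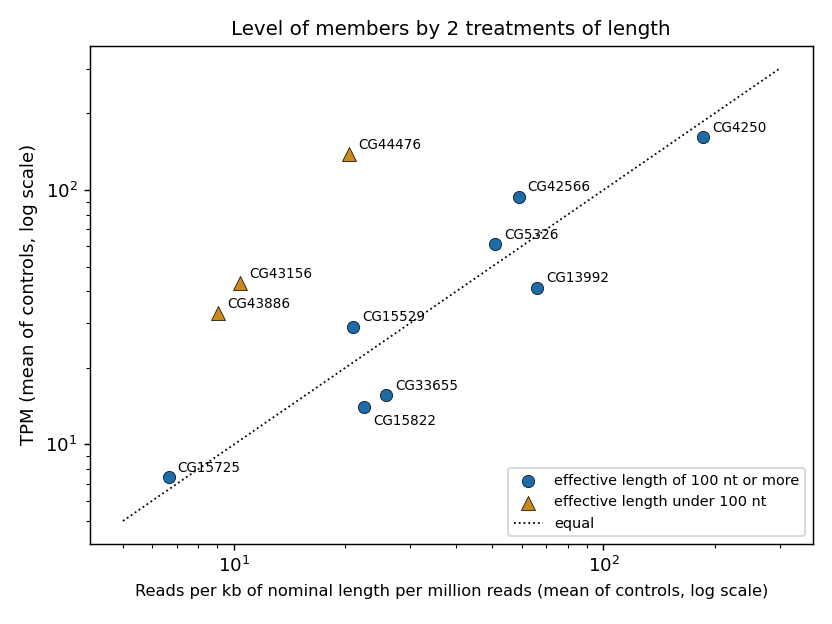
Mean control level of each member on log scales: reads per kilobase of nominal length per 1000000 reads on the x axis and TPM on the y axis. The 3 members with an effective length under 100 nt (triangles) lie well above the dotted line of equal values, and the other 8 lie close to it.

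The TPM rule was strict against the count-based fit. Of the 176 CG genes called lower by at least 4-fold, 5.92% of those tested (4.31% over all genes), 11 were members, 132 had less than 5 TPM in a control, and 33 had 5 TPM in both controls but a TPM ratio under 4. CG34347 was an example of the last kind, at 132 and 80.7 CPM in the controls and 9.88 and 16.5 CPM in the knockdown libraries (log2 fold change -3.0, SE 0.36), with a TPM ratio of 3.51. Just outside the threshold were CG32212 (ratio 3.82; 80.7 and 74.2 TPM in the controls, 19.4 and 16.3 TPM in the knockdown libraries) and CG12206 (ratio 3.60). Just inside it, beside CG4250, were CG15725 (4.36), CG33655 (4.41), CG5326 (4.44), CG13992 (4.45) and CG43886 (4.58). Next to these came CG43156 (5.07), CG15822 (7.07), CG44476 (8.49), CG42566 (10.9) and CG15529 (11.4).

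The rule did not fix how the libraries of 1 group stood to each other. Control 1 was above control 2 in 10 of 11 members by CPM, with a median ratio of 1.93, and knockdown 2 was above knockdown 1 in 10 of 11, with a median ratio of 1.83. Both orders held together in 9 members, against 1879 of the 8798 genes tested (21.4%). Among the 26 genes with other symbols that met the same thresholds, both held in 21 (80.8%), so this pattern was shared by genes chosen in the same way.

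Of the cell type lists, follicle cell markers showed the same 2 orders in milder form: control 1 was the higher in 14 of 19 and knockdown 2 in 17 of 19, with median ratios of 1.22 and 1.30. Over all genes tested, these orders held in 50.1% and 52.8%, each taken alone. Genes of escort and terminal filament cells, which are somatic as well, had control 1 higher in 8 of 9 (median ratio 1.90) but knockdown 2 higher in 5 of 9 (median ratio 1.03). Eggshell genes, of which psd and Fcp3C are also in the follicle cell list, had the controls in the reverse order, with control 1 higher in 2 of 24 (median ratio 0.126) and knockdown 2 higher in 23 of 24 (median ratio 5.26). Muscle sheath genes had control 1 higher in 14 of 15 (median ratio 2.05) but knockdown 2 higher in 4 of 15. The part of these differences in the members' values was not tested.

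**Figure D5:**
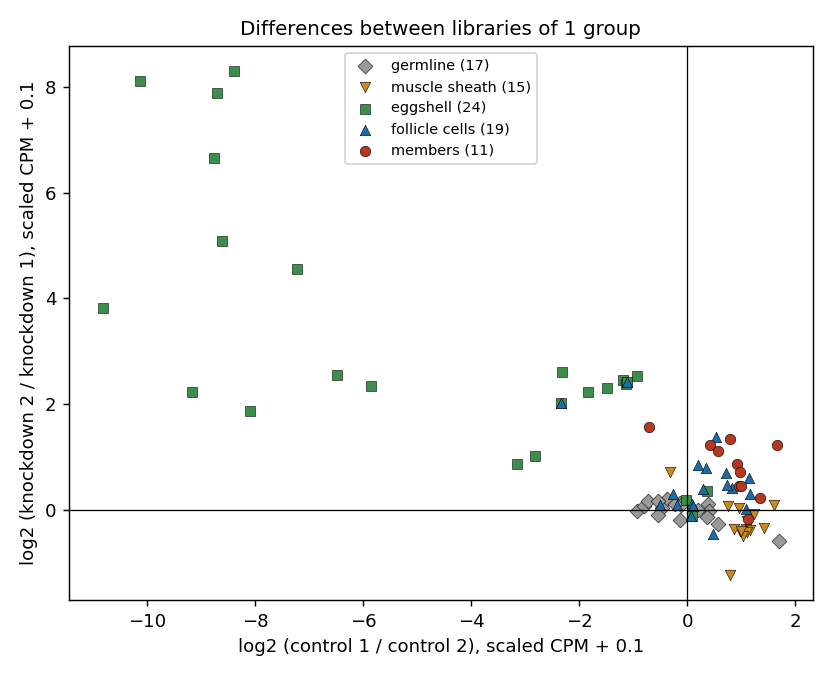
Differences between the libraries of 1 group, as log2 ratios of scaled CPM + 0.1: control 1 over control 2 on the x axis and knockdown 2 over knockdown 1 on the y axis, for the 11 members and for marker genes of follicle cells, eggshell, muscle sheath and germline. Most members and many follicle cell genes lie at the upper right. Eggshell genes spread to the upper left, among them psd and Fcp3C, which are also in the follicle cell list.

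Marker genes of the ovary's cell types were counted against the 16.1% of all genes tested that were called lower and the 11.8% called higher. Median fold changes below are from scaled counts, but summed levels are in TPM. On that scale the median of all genes was itself higher under knockdown (log2 fold change 0.50, limma-trend with pseudocount 1). Of 19 follicle cell markers tested, 10 were lower and 0 higher, with a median log2 fold change of -1.92 and a summed level of 828 and 1178 TPM in the controls and 641 and 777 TPM in the knockdown libraries. Leaving out knockdown 1 or knockdown 2 lowered this count, but also the count over all genes (given above), so 16.1% is not the background for those fits. In this list tj went from 70.1 and 49.8 TPM to 4.26 and 10.7 TPM, and eya from 45.7 and 21.0 TPM to 3.47 and 4.20 TPM. Of 9 tested genes of escort and terminal filament cells, 3 were lower and 0 higher (median -1.31), although the summed level was 158 and 170 TPM in the controls and 281 and 279 TPM in the knockdown libraries. Of 24 eggshell genes, 4 were lower and 0 higher (median -1.31), with sums of 26383 and 85459 TPM in the controls and 3897 and 27969 TPM in the knockdown libraries. That count is near the share over all genes. Germline genes, which the driver does not target, had 2 lower and 6 higher of 17 (median 0.15), with sums of 5984 and 8776 TPM and of 13233 and 14046 TPM.

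Other tissues that may be dissected with the ovary were read in the same way. Muscle sheath genes, also near the share over all genes, had 3 lower and 0 higher of 15 tested (median -0.62; sums of 1353 and 633 TPM, then 1072 and 832 TPM). Hemocyte genes had 0 lower and 2 higher of 8 (median 1.23; 74.7 and 104 TPM, then 227 and 219 TPM; 1 marker at 0 in all libraries). Fat body genes, which include the yolk protein genes that follicle cells also express, had 3 lower and 1 higher of 8 (median -0.24; 3770 and 5279 TPM, then 667 and 1255 TPM). Gut genes had 0 lower and 1 higher of 2 tested, genes of secretory cells of the female tract 0 and 0 of 2, and neural genes 0 and 0 of 7, with 3, 2 and 0 markers at 0 in all libraries. The part of these cell types in the members' fall was not tested. No value here shows in which cells of the ovary the members are transcribed.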

How the data were processed

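The deposited gene tables give expected counts (estimated reads per gene), TPM, and nominal and effective lengths in nt; their columns are those Salmon writes, per the file headers, and the submitters' processing notes name Salmon, HISAT2, DESeq2 and HTSeq with the builds dm3 and BDGP5, with versions and roles not given in the sources used here. TPM values deposited by the authors sum to 1000000 per library. Symbols were matched for 13484 of 13776 identifiers. Gene order, chromosome, synonyms and transcript numbers came from the RefSeq table of Release 6. The HP1 domain list and the DamID samples were not used here.

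Expected counts were rounded and analysed in R 4.3.3 with edgeR 4.0.16 (filterByExpr, TMM, quasi-likelihood F test, Benjamini-Hochberg over 8798 genes, threshold 0.05, no block, 2 residual degrees of freedom). Log2 fold changes are knockdown minus control, with standard errors from the F statistic (size of the change over the root of F). The code was tested on simulated data. Alternatives used DESeq2 1.42.0 and limma 3.58.1 on log2(TPM + 1) or log2(TPM + 0.1). The labels call the libraries of a group biological replicates but do not say that they came from separate crosses, so p-values measure only the spread between these samples.

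The members, marker lists and neighbours were chosen with earlier results of these data known. By rule, every member is named, with values in all libraries. The rule also covers the genes nearest the threshold and the highest genes with other symbols. Only some of these are named here, and not all of them with values. Neighbours of members, within 3 places, and CG34347, w and Vm26Ab were named after their values were seen. Parts of the rule that need sequences were not carried out.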

Additional observations from a re-analysis of the deposited data

How the results depend on the processing

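Because the rule used the same 4 libraries, the sign of the members' log2 fold changes and most of their calls are fixed by the choice and show no stability. Over 13 alternatives, calls were lost for CG43156 without control 1, knockdown 1 or knockdown 2, CG43886 without knockdown 1 or knockdown 2, and CG44476 without knockdown 1: the 3 members with the fewest reads. With a library left out, 8 to 11 members were called lower, their median was -4.68 to -3.36, 7 to 10 follicle cell markers and 191 to 2003 genes in all were called lower, and 15 to 41 CG genes met the rule; the lowest counts of calls were those without knockdown 1. With the replicate number as a block, 11 members, 12 follicle cell markers and 1879 genes were called lower, and the member median was -3.76; the labels do not say that the numbers mark a shared batch, and the differences between libraries 1 and 2 correlated at 0.54 between the groups.

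The number of CG genes that met the rule was 52 with a minimum of 1 TPM, 50 at 2-fold, 3 at 8-fold, 27 with scaled CPM in place of TPM (8 of them members) and 26 with the fold taken from scaled CPM, the last chosen after seeing the data. With limma-trend on TPM, 664 (pseudocount 1) and 669 (pseudocount 0.1) genes were called lower, and the median of members was -2.77 with pseudocount 1, where the median of all genes was 0.50. The log2 fold change of HP1a was 0.46 with both pseudocounts (limma adjusted p = 0.0123), 0.17 with library size alone, and -0.09 to 0.02 with a library left out, above 0 without control 1; relative to the median of all genes (0.50 and 0.56 on TPM, 0.25 with library size alone, 0.03 without control 1) these values were lower. Under both pseudocounts Smr was 0.08 and Upf1 0.07, below the median of all genes. The cause of these shifts was not tested. Few reads limit what can be said of the 3 members shortest in effective length.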
